A study of Homo sapiens with 12 samples.

Results

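RCM-1, a line from a human rectal adenocarcinoma, was compared with HT55 and SW1116, lines from human colon carcinomas, by the microRNAs (miRNAs) of the extracellular vesicles that the cells released into their medium. The comparison set 2 RCM-1 libraries against the mean of 2 HT55 and 2 SW1116 libraries, 6 of the 12 libraries in the series. The labels class all 3 lines as colorectal cancer and give no treatment or engineered genotype. All were grown in the same serum-containing DMEM/F12 medium, and their vesicles were isolated by ultrafiltration and size-exclusion columns. The series set out to compare 2 molecular subtypes, but the labels used here do not tie a line to a subtype. Each group is a single line, so a difference between groups is a difference between lines. Whether the paired libraries of a line were grown as separate cultures is not given in the labels. The p-values therefore rest on library-to-library spread, part or all of which may be technical. Vesicles were analysed in bulk, so fewer vesicles carrying a miRNA and fewer copies per vesicle cannot be told apart.

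miRNAs are short RNAs that pair with messenger RNAs and lower their output. Pairing is led by the seed, bases 2 to 8 from the 5′ end, so miRNAs with the same seed are grouped as a family. Each hairpin precursor can give a 5p and a 3p mature arm, and neighbouring hairpins are often cut from one transcript as a cluster. In colon epithelium the miR-200 family is known for keeping cells epithelial, miR-192, miR-194 and miR-215 for marking the differentiated gut lining, and miR-375 for secretory cells. Vesicle levels depend on both what a cell makes and what it exports.

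The 6 libraries held 2011572 counts, between 138753 (HT55 replicate 1) and 622800 (SW1116 replicate 1) per library. RCM-1 had 172320 and 372549 counts. A single count was worth 1.61 to 7.21 CPM (counts scaled so that every library has the same total), and the 10 leading miRNAs took 66.7% to 78% of a library. Rank correlation between replicates was 0.944 for RCM-1, 0.933 for HT55 and 0.958 for SW1116, against 0.87 to 0.925 between RCM-1 and the other lines. Of 995 miRNAs with a count in these libraries, 318 were tested, and they held 99.76% of the counts. Levels below are TMM-scaled CPM, given as replicate 1 then replicate 2, and differences are log2 with their standard error (SE). A miRNA is called at a Benjamini-Hochberg adjusted p below 0.05 in edgeR's quasi-likelihood test. The 7 colorectal epithelial markers (miR-192-5p, miR-194-5p, miR-215-5p, miR-200b-3p, miR-200c-3p, miR-141-3p and miR-375-3p) had counts in all 6 libraries.

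The sequences that carry the comparison are given first, 5′ to 3′, with the seed in capitals; they and their positions are from RefSeq, build GRCh38.p14, where 258 of the 318 tested miRNAs and 35 of the 41 called ones were found. The first set is those found there among the 12 miRNAs in which RCM-1 stood apart from HT55 and from SW1116 in the same direction: first the higher ones, then the lower ones.
miR-664a-3p: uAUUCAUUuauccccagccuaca
miR-215-5p: aUGACCUAugaauugacagac
miR-361-3p: uCCCCCAGgugugauucugauuu
miR-509-3p: uGAUUGGUacgucuguggguag
miR-181d-5p: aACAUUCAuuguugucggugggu
miR-132-3p: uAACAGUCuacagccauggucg
miR-99b-5p: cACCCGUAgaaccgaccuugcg
miR-23b-3p: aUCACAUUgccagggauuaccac
miR-24-3p: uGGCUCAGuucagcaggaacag
miR-182-5p: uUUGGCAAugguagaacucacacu

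The second set shows let-7e-5p and miR-125a-5p of the chromosome 19 cluster that also gives miR-99b-5p, each beside a miRNA of another locus with the same seed, and miR-100-5p, which shares the seed of miR-99b-5p. The 3 cluster members were lower in RCM-1 against the mean, while their same-seed partners were not called.
let-7e-5p: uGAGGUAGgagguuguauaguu
let-7a-5p: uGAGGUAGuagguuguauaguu
miR-125a-5p: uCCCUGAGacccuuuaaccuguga
miR-125b-5p: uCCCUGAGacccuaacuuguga
miR-100-5p: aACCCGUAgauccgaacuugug

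The third set shows seed families in which members moved together or apart: miR-192-5p shares its seed with miR-215-5p above and both were higher, miR-221-3p and miR-222-3p were both lower, and miR-148a-3p was higher while miR-152-3p was lower.
miR-192-5p: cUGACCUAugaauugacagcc
miR-221-3p: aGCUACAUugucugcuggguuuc
miR-222-3p: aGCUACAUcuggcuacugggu
miR-148a-3p: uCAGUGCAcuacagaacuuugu
miR-152-3p: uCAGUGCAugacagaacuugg

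Against the mean of HT55 and SW1116, 17 miRNAs (5.35% of those tested) were higher in RCM-1 vesicles and 24 (7.55%) were lower. An unadjusted p below 0.05 was reached by 78. Of the calls, 12 higher and 22 lower were at least 2-fold, and 5 higher and 8 lower were at least 4-fold. In 16 of the 17 higher and 21 of the 24 lower the RCM-1 libraries lay outside the range of the other 4. Over all tested miRNAs, called or not, both RCM-1 libraries were above the other 4 for 42 (13.2%) and below them for 32 (10.1%). The median difference over all tested was 0.0016. The higher miRNAs took 16.3% and 16.7% of RCM-1 counts, 12.6% and 14% of HT55 counts, and 5.07% and 6.13% of SW1116 counts. The lower ones took 6.63% and 6.9% in RCM-1, 17.6% and 15.6% in HT55, and 14.2% and 16.1% in SW1116.

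The 2 lines behind the mean differed from each other in more miRNAs than RCM-1 differed from their mean: 32 (10.1%) were higher and 33 (10.4%) lower in HT55 than in SW1116. RCM-1 was higher than HT55 in 17 (5.35%) and lower in 26 (8.18%), and higher than SW1116 in 17 (5.35%) and lower in 26 (8.18%). Both comparisons use the same RCM-1 libraries. Just 4 miRNAs (1.26%) were higher than in each line, 8 (2.52%) were lower than in each, and 1 (0.314%) was between them. Of the 17 higher against the mean, 4 were called against both lines, 5 against HT55 only and 7 against SW1116 only. Of the 24 lower, the corresponding numbers were 8, 4 and 12. With library totals as the only scaling the median of all miRNAs moved to 0.16, and the calls became 24 higher and 20 lower, 54.5% higher against 41.5% with TMM. Without RCM-1 replicate 1 there were 5 higher and 14 lower, without RCM-1 replicate 2 there were 10 and 16, without HT55 replicate 1 there were 11 and 28, and without HT55 replicate 2 there were 6 and 29. In all 22 other settings tried, 12 of the 41 calls held: miR-150-5p, miR-664a-3p, miR-361-3p and miR-375-3p (higher), and miR-509-3p, miR-99b-5p, miR-125a-5p, let-7e-5p, miR-205-5p, miR-1246, miR-1290 and miR-183-5p (lower).

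Of the higher miRNAs, 4 stood above each line. miR-150-5p, known for its high level in mature lymphocytes, was at 569 and 733 CPM in RCM-1, 122 and 177 in HT55, and 62.5 and 84.6 in SW1116. It rose by 2.63 (SE 0.39, adjusted p = 6.89e-05) against the mean, a 6.18-fold difference. The RCM-1 libraries were both above every library of the other lines. The other blood-cell and serum miRNAs did not share this: of 6 tested on that list, miR-150-5p was the only one called against the mean, the other 5 lay between -0.68 (miR-486-5p) and 0.36 (miR-142-5p), and the list median was -0.27. miR-486-5p was lower against HT55 alone (-1.47, adjusted p = 0.00248). The summed share of the list was 0.298% and 0.228% in RCM-1, 0.502% and 0.573% in HT55, and 0.176% and 0.109% in SW1116. Of the 6 libraries compared, only HT55 replicate 2 held miR-144-3p, an erythroid miRNA, with 2 counts. miR-451a, the main red-cell miRNA, was at 261 and 145 CPM in RCM-1 against 399 and 344 in HT55 and 205 and 169 in SW1116.

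miR-664a-3p, cut from an intron of RAB3GAP2 (chr1:220200549-220200571), was at 196 and 210 CPM in RCM-1, 34.7 and 51.1 in HT55, and 38 and 18.8 in SW1116. It rose by 2.49 (SE 0.52, adjusted p = 0.0019), on 4 and 11 counts in HT55 and 17 and 6 in SW1116. Those low counts measured the other lines loosely, and all 4 of their libraries were below both RCM-1 libraries. miR-215-5p (chr1:220117916-220117936, intergenic) was at 255 and 287 CPM in RCM-1, 69.5 and 65.1 in HT55, and 58.1 and 75.2 in SW1116. Its rise of 2.02 (SE 0.53, adjusted p = 0.00927) was the same size against HT55 (2.01) and SW1116 (2.02). The groups did not overlap, and the difference of HT55 from SW1116 was 0.01 (SE 0.68, adjusted p = 0.996). Of 10 settings that left out no single library, the call of miR-215-5p above each line held in 4. RLE factors, library totals, both other filters, DESeq2 and limma-trend lost it, with the weaker adjusted p of the pair at 0.0589 to 0.195. Against the mean, miR-215-5p was lost under limma-trend (adjusted p = 0.0632).

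miR-361 comes from an intron of CHM on the X chromosome, and both of its arms were higher. The 3p arm (chrX:85903641-85903663) was at 1033 and 1384 CPM in RCM-1, 174 and 265 in HT55, and 357 and 592 in SW1116. It rose by 1.90 (SE 0.32, adjusted p = 0.000204), by 2.44 against HT55 and 1.35 against SW1116. The 5p arm was at 948 and 1144 CPM in RCM-1, 391 and 409 in HT55, and 578 and 592 in SW1116. It rose by 1.11 (SE 0.29, adjusted p = 0.00927) and was called against HT55 (1.39, adjusted p = 0.0103) but not against SW1116 (0.84, adjusted p = 0.125). Both RCM-1 libraries were above the other 4 for each arm. The 5p call against the mean was lost without RCM-1 replicate 2 (adjusted p = 0.147) or HT55 replicate 2 (0.122).

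These 4 were also above all 6 libraries of the lines outside the contrast, where miR-150-5p reached 131 CPM, miR-215-5p 30, miR-361-3p 599.9 and miR-664a-3p 107. The call of being above each line rested on single libraries: 4 held with all libraries, 2 without RCM-1 replicate 1, 0 without RCM-1 replicate 2, 1 without HT55 replicate 1, 0 without HT55 replicate 2, and 2 without either SW1116 library. In edgeR's adjusted p for the weaker of the pair of tests, miR-150-5p reached 0.0769, miR-664a-3p 0.213, miR-361-3p 0.212 and miR-215-5p 0.301 at most. Against the mean, miR-150-5p, miR-664a-3p and miR-361-3p held with any library left out, while miR-215-5p was lost without RCM-1 replicate 1 (0.051), RCM-1 replicate 2 (0.117) or HT55 replicate 2 (0.0822).

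Of the lower miRNAs, 8 stood below each line. The widest gap was in miR-509-3p, one of a cluster of X-linked miRNAs (Xq27, miR-506 to miR-514) best known from testis. It was at 78.4 and 82.8 CPM in RCM-1, 8077 and 3101 in HT55, and 317 and 251 in SW1116. Against the mean it fell by 3.95 (SE 0.43, adjusted p = 9.57e-07), by 6.10 against HT55 and by 1.81 against SW1116. RCM-1 was therefore the lowest of the 3, but most of the difference came from the high level in HT55. Its mature sequence is cut from 3 hairpins between chrX:147258760 and chrX:147260625, which counts cannot separate. Among the libraries outside the contrast the median was 94.96 CPM (57.1 to 164), the RCM-1 range lying within it.

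Other members of the cluster had few or no RCM-1 counts. miR-508-3p had 1 count in each RCM-1 library, against 71 and 55 in HT55 and 11 and 8 in SW1116. Its unscaled CPM was 26.9 times higher in the 4 other libraries (95% counting interval 7.32 to 225) and the test gave an adjusted p of 0.00298, which rose to 0.0757 without RCM-1 replicate 2. miR-513a-5p had 0 counts in RCM-1, 37 in HT55 and 1 in SW1116, at least 4.71-fold lower in RCM-1 with a floor of 3 counts over its libraries. It was not called against the mean (adjusted p = 0.206) but was against HT55 (adjusted p = 0.00455). miR-509-3-5p and miR-514a-3p, outside the tested set, had 2 and 1 counts in RCM-1 against 46 and 35 in the other 4 libraries, ratios of 8.54 (2.23 to 72.7) and 13 (2.19 to 528). Of the 35 counts of miR-514a-3p, 26 were in HT55 replicate 2, while HT55 replicate 1 held 2, so its ratio rests mainly on a single library. Of the 14 cluster members on the list used here, 10 had counts and 3 were tested. miR-508-3p and miR-513a-5p had at most 11 counts in any library outside HT55, so no median is given for the cluster.

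miR-181d-5p, of the miR-181 family and cut from an intron of NANOS3 (chr19:13874910-13874932), was at 19.6 and 76.9 CPM in RCM-1, 313 and 279 in HT55, and 214 and 254 in SW1116. It fell by 2.30 (SE 0.52, adjusted p = 0.00298). RCM-1 replicate 1 held only 3 counts of it, and without that library the call was lost (adjusted p = 0.0777). miR-132-3p (chr17:2049929-2049950, intergenic), a miRNA induced by the transcription factor CREB in neurons, was at 32.7 and 26.6 CPM in RCM-1, 191 and 139 in HT55, and 93.8 and 157 in SW1116. It fell by 2.28 (SE 0.64, adjusted p = 0.0162). Without RCM-1 replicate 1 or 2 its adjusted p was 0.0845 or 0.147, and limma-voom gave 0.0663.

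miR-183-5p and miR-182-5p, partners in a cluster of sensory epithelia that is often raised in carcinomas, were lower together. miR-183-5p was at 9432 and 8347 CPM in RCM-1, 21746 and 13749 in HT55, and 21142 and 25139 in SW1116, a fall of 1.19 (SE 0.26, adjusted p = 0.00265). miR-182-5p (chr7:129770447-129770470) was at 18387 and 15180 CPM in RCM-1, 38690 and 22607 in HT55, and 43239 and 51185 in SW1116, a fall of 1.18 (SE 0.26, adjusted p = 0.00285). In both the RCM-1 libraries were the lowest, with HT55 replicate 2 nearest to them. miR-96-5p, the third member, was at 98 and 23.7 CPM in RCM-1, 26.1 and 32.5 in HT55, and 87.1 and 21.9 in SW1116, and was not called (0.48, SE 0.81, adjusted p = 0.767). The 3 tested members had a median of -1.18. With their minor arms they held 2.48% and 2.14% of RCM-1 counts, 5.02% and 3.79% of HT55 counts, and 4.64% and 4.89% of SW1116 counts. The miR-182-5p call against the mean was lost without RCM-1 replicate 2 (adjusted p = 0.0637).

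miR-23b-3p and miR-24-3p, neighbours in C9orf3 on chromosome 9 and known for roles in muscle and vessel biology, also fell. miR-23b-3p (chr9:95085265-95085287) was at 1262 and 1336 CPM in RCM-1, 3196 and 3120 in HT55, and 2537 and 3323 in SW1116, a fall of 1.23 (SE 0.27, adjusted p = 0.00285). miR-24-3p was at 641 and 813 CPM in RCM-1, 1624 and 1414 in HT55, and 1903 and 1737 in SW1116, a fall of 1.19 (SE 0.30, adjusted p = 0.00697). The spread within each line was small beside these gaps, although both calls were lost without RCM-1 replicate 1 (adjusted p = 0.0549 and 0.129). miR-24-3p is also cut from a hairpin on chromosome 19, beside miR-23a, so its counts cannot be placed. miR-27b-3p, between them on chromosome 9, was at 876 and 893 CPM in RCM-1, 703 and 1125 in HT55, and 1344 and 1235 in SW1116 (-0.30, SE 0.29, adjusted p = 0.584). miR-23a-3p, which shares the seed of miR-23b-3p, was at 4327 and 4412 CPM in RCM-1, 6131 and 7165 in HT55, and 7222 and 7689 in SW1116, just outside the threshold (-0.69, SE 0.23, adjusted p = 0.0503).

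**Figure D1:**
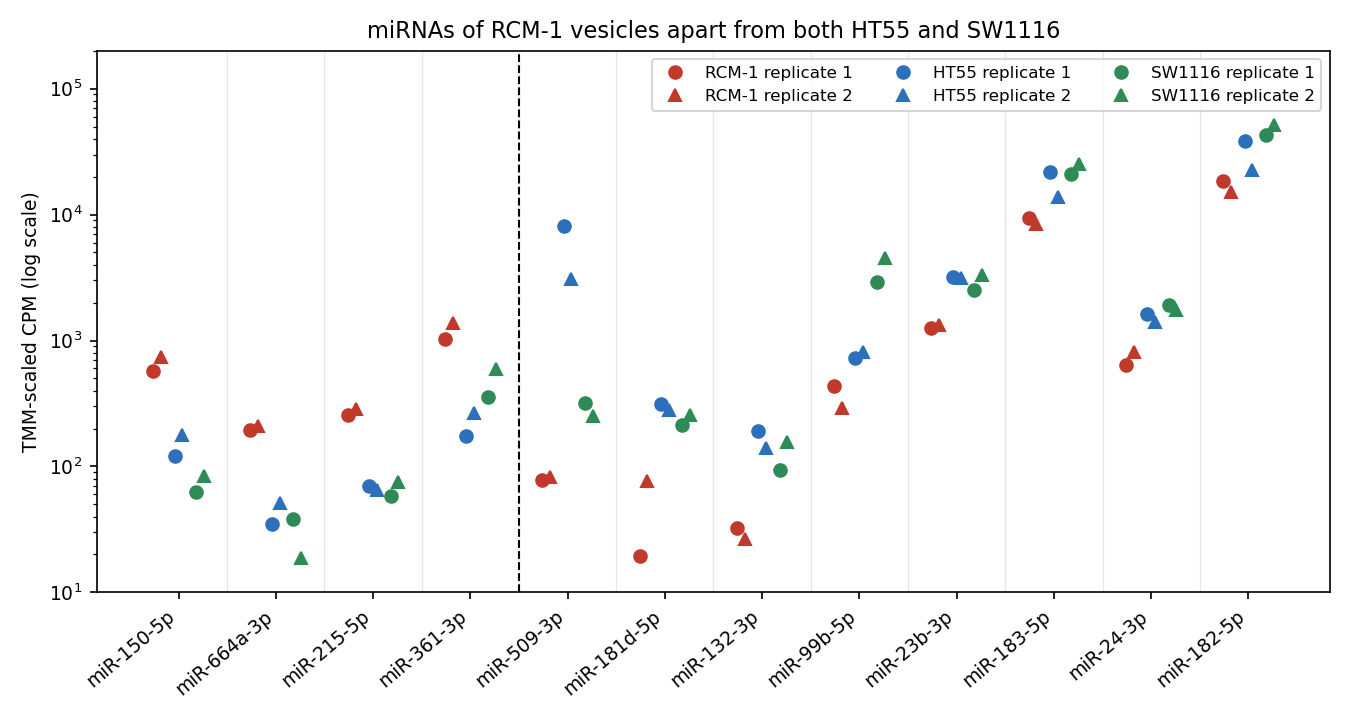
TMM-scaled CPM (log axis) of the 12 miRNAs called against HT55 and against SW1116 in the same direction; each point is a library, circles replicate 1 and triangles replicate 2. Left of the dashed line both RCM-1 points lie above the other 4 (miR-150-5p 569 and 733 against 177 or less), and right of it they lie below.

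Being below each line also rested on single libraries: of the 8, 1 held without RCM-1 replicate 1 (miR-509-3p), 3 without RCM-1 replicate 2, 3 without HT55 replicate 1, 7 without HT55 replicate 2 and 6 without either SW1116 library. With limma-voom 3 held. Of the 8, miR-132-3p, miR-181d-5p and miR-99b-5p were also below all 6 libraries outside the contrast. The other 5 overlapped that range. The lowest outside levels of these 3 were 34.6, 116 and 1892 CPM in turn. For miR-132-3p the gap was within counting error, with 5 counts in RCM-1 replicate 1 and 11 in MDST8 replicate 2, the lowest outside library. One miRNA, miR-574-5p, from an intron of FAM114A1 on chromosome 4, was between the lines, with 2026 and 1212 CPM in RCM-1, 747 and 595 in HT55, and 3214 and 3147 in SW1116. It was above HT55 by 1.27 (SE 0.33, adjusted p = 0.0116) and below SW1116 (-0.98, SE 0.32, adjusted p = 0.0456).

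The cluster of miR-99b, let-7e and miR-125a spans chr19:51692612-51693339 in an intron of SPACA6, and all 4 of its tested mature miRNAs were lower in RCM-1 vesicles. miR-99b-5p (chr19:51692618-51692639), of the miR-99 and miR-100 family that targets the growth kinase mTOR, was at 438 and 293 CPM in RCM-1, 721 and 809 in HT55, and 2941 and 4548 in SW1116. It fell by 2.23 (SE 0.32, adjusted p = 6.58e-05). let-7e-5p (chr19:51692793-51692814), of the let-7 family that limits growth genes such as the RAS genes, was at 909 and 719 CPM in RCM-1, 1207 and 1283 in HT55, and 5172 and 7699 in SW1116, a fall of 1.80 (SE 0.29, adjusted p = 0.000125). In both, the RCM-1 libraries were the lowest and SW1116 the highest.

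miR-125a-5p (chr19:51693268-51693291), known for targeting ERBB2 and ERBB3, was at 209 and 171 CPM in RCM-1, 321 and 446 in HT55, and 1400 and 3191 in SW1116. It fell by 2.32 (SE 0.37, adjusted p = 0.000125). miR-99b-3p, the minor arm, was at 45.8 and 11.8 CPM in RCM-1, 78.2 and 79 in HT55, and 165 and 339 in SW1116, a fall of 2.50 (SE 0.57, adjusted p = 0.00345) that was lost without RCM-1 replicate 2 (adjusted p = 0.143). In all 4 the RCM-1 libraries were the lowest of the 6. Against SW1116 alone the differences were -3.37 (miR-99b-5p), -2.99 (let-7e-5p), -3.60 (miR-125a-5p) and -3.33 (miR-99b-3p), each called. Against HT55 alone miR-99b-5p was called (-1.09, adjusted p = 0.0414), and let-7e-5p (-0.62, adjusted p = 0.214), miR-125a-5p (-1.04, adjusted p = 0.0914) and miR-99b-3p (-1.67, adjusted p = 0.0914) were not.

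The miRNAs of the same seeds made from other chromosomes did not pass the test. miR-100-5p was at 3674 and 2685 CPM in RCM-1, 4976 and 6500 in HT55, and 4288 and 3204 in SW1116 (-0.55, SE 0.25, adjusted p = 0.161). miR-99a-5p was at 882 and 1298 CPM in RCM-1, above the 364 to 578 of the other 4 libraries (1.24, SE 0.42, adjusted p = 0.0615). miR-125b-5p was at 699 and 550 CPM in RCM-1 and at 619 to 837 in the other lines (-0.22, SE 0.31, adjusted p = 0.716). miR-99a-5p and miR-100-5p are near-identical, as are the let-7 members, so reads could be split between them by the counting. Of 9 tested let-7 family members only let-7e-5p was called, with a family median of -0.32. Of 8 tested members of the miR-99, miR-100 and miR-125 list, 3 were lower and the median was -0.38; under RLE factors and limma-trend 1 member was also called higher.

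**Figure D2:**
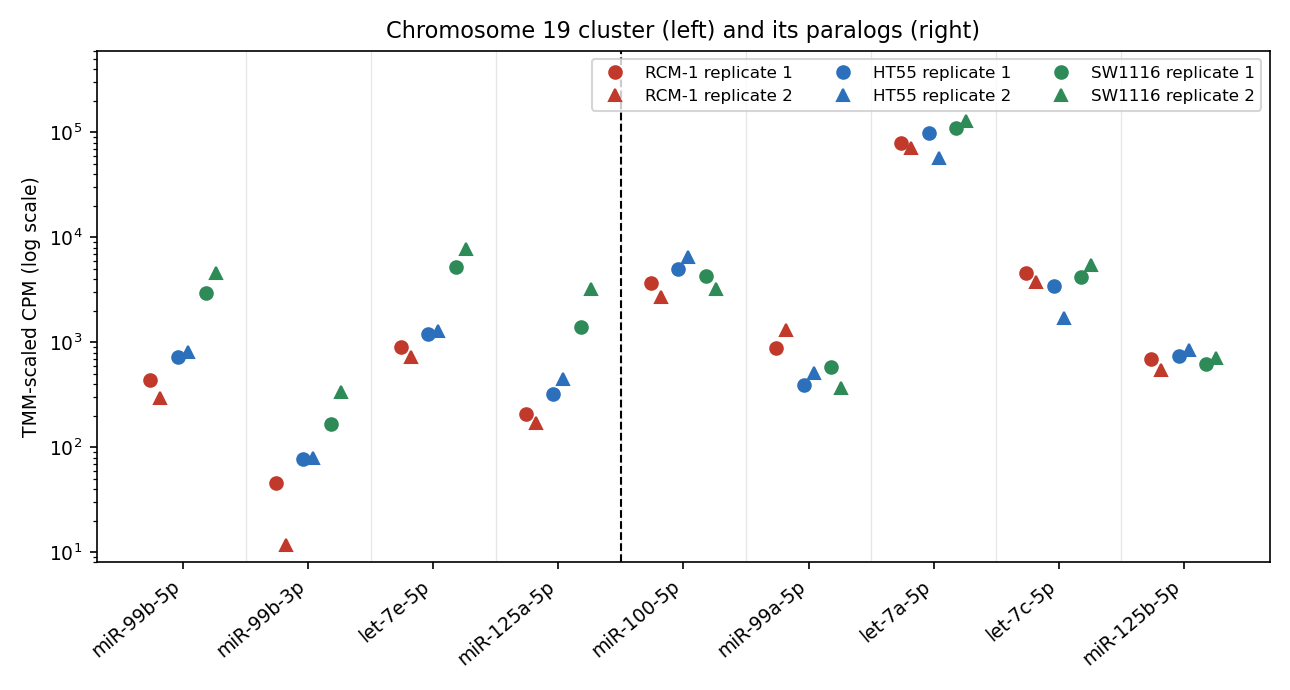
TMM-scaled CPM (log axis) of the 4 chromosome 19 cluster miRNAs, left of the dashed line, and of miRNAs with the same seeds from other loci, right of it; each point is a library. RCM-1 points are the lowest for the cluster (miR-125a-5p 209 and 171 against 3191 in SW1116 replicate 2) and mixed with the other lines for let-7a-5p, let-7c-5p and miR-100-5p.

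Some calls against the mean were carried by HT55. miR-1246, a short RNA whose sequence also matches part of the U2 spliceosomal RNA, was at 3013 and 3241 CPM in RCM-1, 53090 and 32720 in HT55, and 3028 and 4106 in SW1116. The fall of 1.98 (SE 0.31, adjusted p = 9.37e-05) was 3.78 against HT55, while RCM-1 and SW1116 overlapped (-0.19, SE 0.32, adjusted p = 0.83). miR-1290, often reported with miR-1246 in tumour vesicles, followed it, at 340 and 343 CPM in RCM-1, 3691 and 3976 in HT55, and 386 and 395 in SW1116. It fell by 1.84 (SE 0.34, adjusted p = 0.000506), again with no call against SW1116 (-0.19, adjusted p = 0.844). For both, HT55 was the line that stood out.

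miR-200b-3p was lower with HT55 furthest away, at 11014 and 17522 CPM in RCM-1, 46385 and 32985 in HT55, and 23272 and 23882 in SW1116. It fell by 1.10 (SE 0.26, adjusted p = 0.00485), a call lost without RCM-1 replicate 1 (adjusted p = 0.205). miR-29a-3p, of a family that targets collagens, and miR-374b-5p were higher and called against HT55 only. miR-29a-3p was at 4438 and 4601 CPM in RCM-1, 1337 and 2399 in HT55, and 4138 and 2492 in SW1116 (0.86, SE 0.26, adjusted p = 0.0241). miR-374b-5p was at 2510 and 2475 CPM in RCM-1, 816 and 1088 in HT55, and 2318 and 1564 in SW1116 (0.87, SE 0.26, adjusted p = 0.0241). Each call was lost without any one of 5 libraries, namely both RCM-1, both HT55 and SW1116 replicate 2, with adjusted p up to 0.165 for miR-29a-3p and 0.189 for miR-374b-5p.

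Other calls were carried by SW1116. miR-205-5p, best known from skin and other stratified epithelia, was at 65.4 and 47.3 CPM in RCM-1, 78.2 and 153 in HT55, and 509 and 727 in SW1116. It fell by 2.31 (SE 0.44, adjusted p = 0.000715), by 3.49 against SW1116. miR-9-5p, abundant in nervous tissue, was at 346 and 195 CPM in RCM-1, 234 and 321 in HT55, and 1561 and 1574 in SW1116, a fall of 1.32 (SE 0.34, adjusted p = 0.00927) that was lost without RCM-1 replicate 2 (adjusted p = 0.165). RCM-1 and HT55 overlapped in miR-9-5p, and SW1116 was high.

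miR-221 and miR-222, an X-linked pair known for repressing the cell-cycle inhibitor p27, were lower against the mean, with SW1116 the high line. miR-222-3p was at 15171 and 14678 CPM in RCM-1, 16292 and 15990 in HT55, and 53447 and 85668 in SW1116, a fall of 1.17 (SE 0.26, adjusted p = 0.00285). miR-221-3p was at 9197 and 10035 CPM in RCM-1, 9032 and 9513 in HT55, and 27792 and 30315 in SW1116, a fall of 0.77 (SE 0.23, adjusted p = 0.0226). RCM-1 and HT55 were not distinguished in either (-0.11 and 0.05). All 4 tested arms of the pair were below 0, 3 of them called, with a median of -1.09; with library totals or limma-trend only 1 was called. The calls were lost without RCM-1 replicate 1 for miR-222-3p (adjusted p = 0.051), miR-221-3p (0.232) and miR-221-5p (0.104), and without RCM-1 replicate 2 for miR-221-3p (0.104) and miR-221-5p (0.166).

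miR-375-3p was higher, with SW1116 the low line. It was at 6125 and 8022 CPM in RCM-1, 5767 and 6100 in HT55, and 1224 and 1451 in SW1116. It rose by 1.33 (SE 0.24, adjusted p = 0.000506), by 2.40 against SW1116 and by 0.25 (adjusted p = 0.634, not called) against HT55. miR-148a-3p, which targets the DNA methyltransferase DNMT1, was at 9118 and 6949 CPM in RCM-1, 10352 and 9360 in HT55, and 2010 and 1019 in SW1116 (1.05, SE 0.26, adjusted p = 0.00598). Both RCM-1 libraries were below both HT55 libraries and far above both SW1116 libraries, with differences of -0.30 (adjusted p = 0.591) and 2.40 (adjusted p = 4.93e-06). The miR-148a-3p call was lost without RCM-1 replicate 1 (0.144) or HT55 replicate 2 (0.12).

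**Figure D3:**
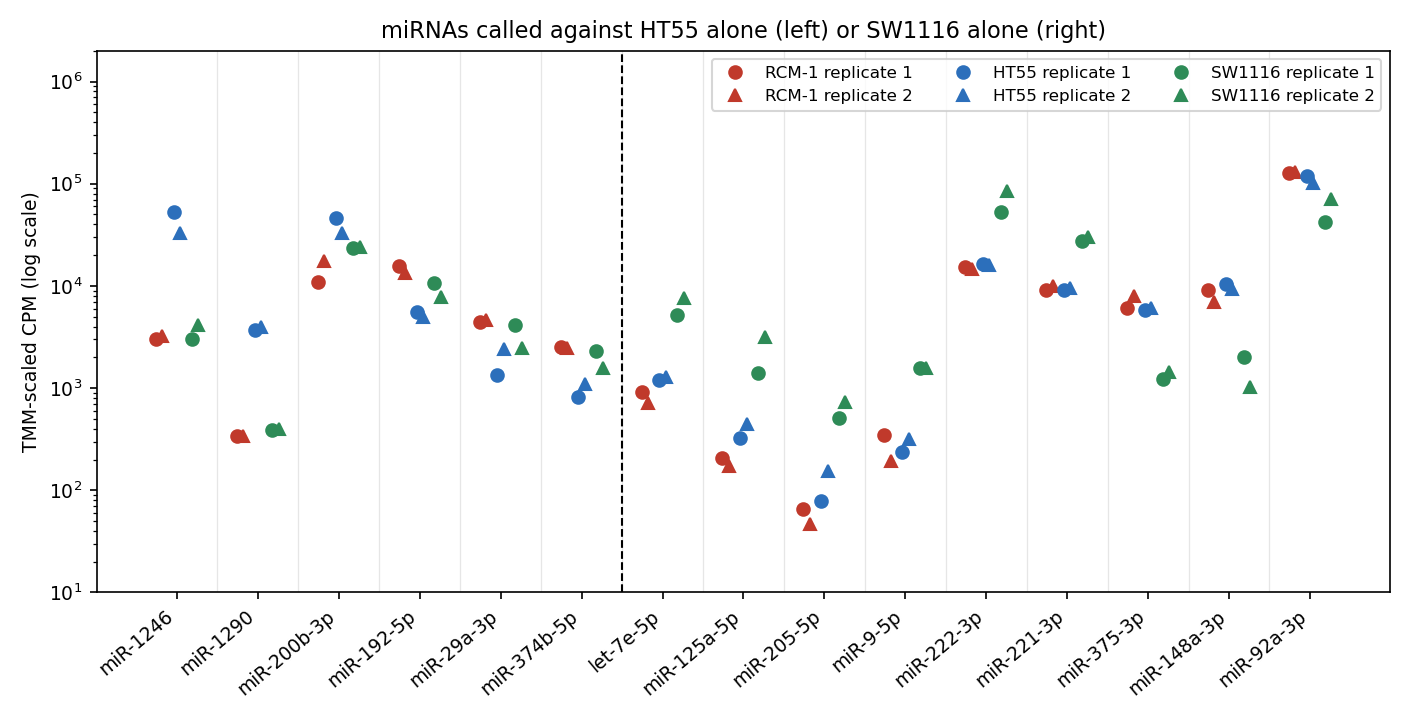
TMM-scaled CPM (log axis) of miRNAs called against the mean and against HT55 only (left of the dashed line) or SW1116 only (right of it). The miRNAs shown are a selection of these calls. Each point is a library. HT55 points stand above the others for miR-1246 (53090 and 32720), and SW1116 points stand apart for miR-222-3p and miR-375-3p.

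Among gut-lining miRNAs, miR-192-5p rose with miR-215-5p. It was at 15622 and 13264 CPM in RCM-1, 5593 and 4929 in HT55, and 10775 and 7768 in SW1116, a rise of 1.05 (SE 0.23, adjusted p = 0.00298). RCM-1 was the highest, SW1116 next and HT55 the lowest. RCM-1 was called against HT55 (1.46, adjusted p = 0.00156) and not against SW1116 (0.64, adjusted p = 0.147). Both RCM-1 libraries were nevertheless above both SW1116 libraries. The call was lost without RCM-1 replicate 1 (adjusted p = 0.0777) or HT55 replicate 2 (0.0998). miR-194-5p, made beside both of them, was at 5373 and 6538 CPM in RCM-1, 2823 and 2674 in HT55, and 5748 and 3946 in SW1116, just outside the threshold (0.71, SE 0.24, adjusted p = 0.0503). miR-194-3p went the other way in HT55, at 386 and 328 CPM in RCM-1, 912 and 809 in HT55, and 217 and 351 in SW1116 (-0.47, SE 0.37, adjusted p = 0.481). Of 4 tested members of the group 2 were higher against the mean, with a median of 0.88. Against HT55 alone 3 were called higher and 1, miR-194-3p, was called lower. Against SW1116 alone 1 was higher and 0 lower.

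The miR-200 family had 7 tested members, 1 lower (miR-200b-3p) and none higher, with a median of -0.56. miR-200c-3p, its leading member, was at 68502 and 104092 CPM in RCM-1, 104998 and 79613 in HT55, and 69836 and 90859 in SW1116 (0.00, SE 0.27, adjusted p = 1). The lines overlapped fully in it. miR-141-3p, cut from the same transcript, was at 497 and 319 CPM in RCM-1 and 130 to 261 in the other lines, without a call (1.14, SE 0.45, adjusted p = 0.101). The family took 7.36% and 11.3% of RCM-1 counts, 13% and 12.2% in HT55, and 6.91% and 7.54% in SW1116. In the endocrine and secretory pair, miR-375-3p was higher and miR-7-5p (5556 and 3637 CPM in RCM-1) was not called (0.31, SE 0.25, adjusted p = 0.482), with a median of 0.82.

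The growth-linked miR-17-92 cluster and its paralogs had 18 tested members with a median of 0.53, and 16 of them were above 0, but only miR-92a-3p was called. It was at 127716 and 129993 CPM in RCM-1, 118954 and 101913 in HT55, and 42536 and 70547 in SW1116 (0.71, SE 0.23, adjusted p = 0.0473). SW1116 was the low line, and the call was at the edge of the threshold: it was lost when 9 of the 12 libraries were left out singly, all but SW1116 replicate 2 and the Car-1 libraries (adjusted p up to 0.39, without HT55 replicate 2), and under RLE factors (0.0707). miR-92b-3p, of the same seed but another locus on chromosome 1, was at 4327 and 3776 CPM in RCM-1, 2961 and 2618 in HT55, and 1199 and 2063 in SW1116 (0.93, SE 0.26, adjusted p = 0.0149). It was lost without either RCM-1 library, HT55 replicate 2 or SW1116 replicate 1 (adjusted p up to 0.211). miR-25-3p, also of this seed, was at 18779 and 27067 CPM in RCM-1 and 14844 to 19367 in the other lines (0.40, SE 0.23, adjusted p = 0.303).

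Among the smaller families, the miR-29 family had 4 tested members, all above 0, with 1 called and a median of 0.90. The miR-224 and miR-452 pair lies within GABRE. miR-224-5p was at 9962 and 10905 CPM in RCM-1, 4846 and 4747 in HT55, and 4918 and 7188 in SW1116. It rose by 0.95 (SE 0.24, adjusted p = 0.00779), with both RCM-1 libraries above the other 4. The call was lost without RCM-1 replicate 1 (0.051) or 2 (0.118), HT55 replicate 2 (0.122) or SW1116 replicate 1 (0.0551). miR-452-5p was not called (0.22, adjusted p = 0.885), and the median of the pair was 0.59. Of 6 tested arms of miR-30a, miR-30c and miR-30e, a list that leaves out miR-30b and miR-30d, 2 were lower, both from the miR-30a hairpin. miR-30a-5p was at 2752 and 1919 CPM in RCM-1, 4030 and 5073 in HT55, and 5960 and 3921 in SW1116 (-1.03, SE 0.31, adjusted p = 0.0264). miR-30a-3p was at 850 and 559 CPM in RCM-1 and 1164 to 1624 in the other lines (-0.92, SE 0.27, adjusted p = 0.0226). With library totals the median of -0.13 over these 6 arms turned to 0.03 and neither was called, and without RCM-1 replicate 2 the adjusted p was 0.241 for miR-30a-5p and 0.272 for miR-30a-3p. Without SW1116 replicate 1 these were 0.0823 and 0.0604, and without RCM-1 replicate 1 miR-30a-5p was at 0.0712.

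The miR-181 family had 5 tested members, 2 lower, and a median of -0.68. Besides miR-181d-5p, the minor arm miR-181a-2-3p was at 39.2 and 71 CPM in RCM-1, 122 and 88.3 in HT55, and 266 and 223 in SW1116 (-1.45, SE 0.41, adjusted p = 0.0176; 0.197 without RCM-1 replicate 1). miR-181a-5p and miR-181b-5p, of the same seed as miR-181d-5p, had differences of -0.27 and 0.03 and were not called. The miR-23, miR-27 and miR-24 list had 7 tested members, 2 lower and 1 higher, with a median of -0.69. The miR-132 and miR-212 list had 2 tested members, miR-132-3p, which was lower, and miR-132-5p, with 1 RCM-1 count. In the squamous list of 3 tested members (median 0.07) miR-205-5p was lower and miR-203a-3p was at 5615 and 5142 CPM in RCM-1 and 4268 to 6149 in the other lines (0.07, SE 0.25, adjusted p = 0.915).

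**Figure D4:**
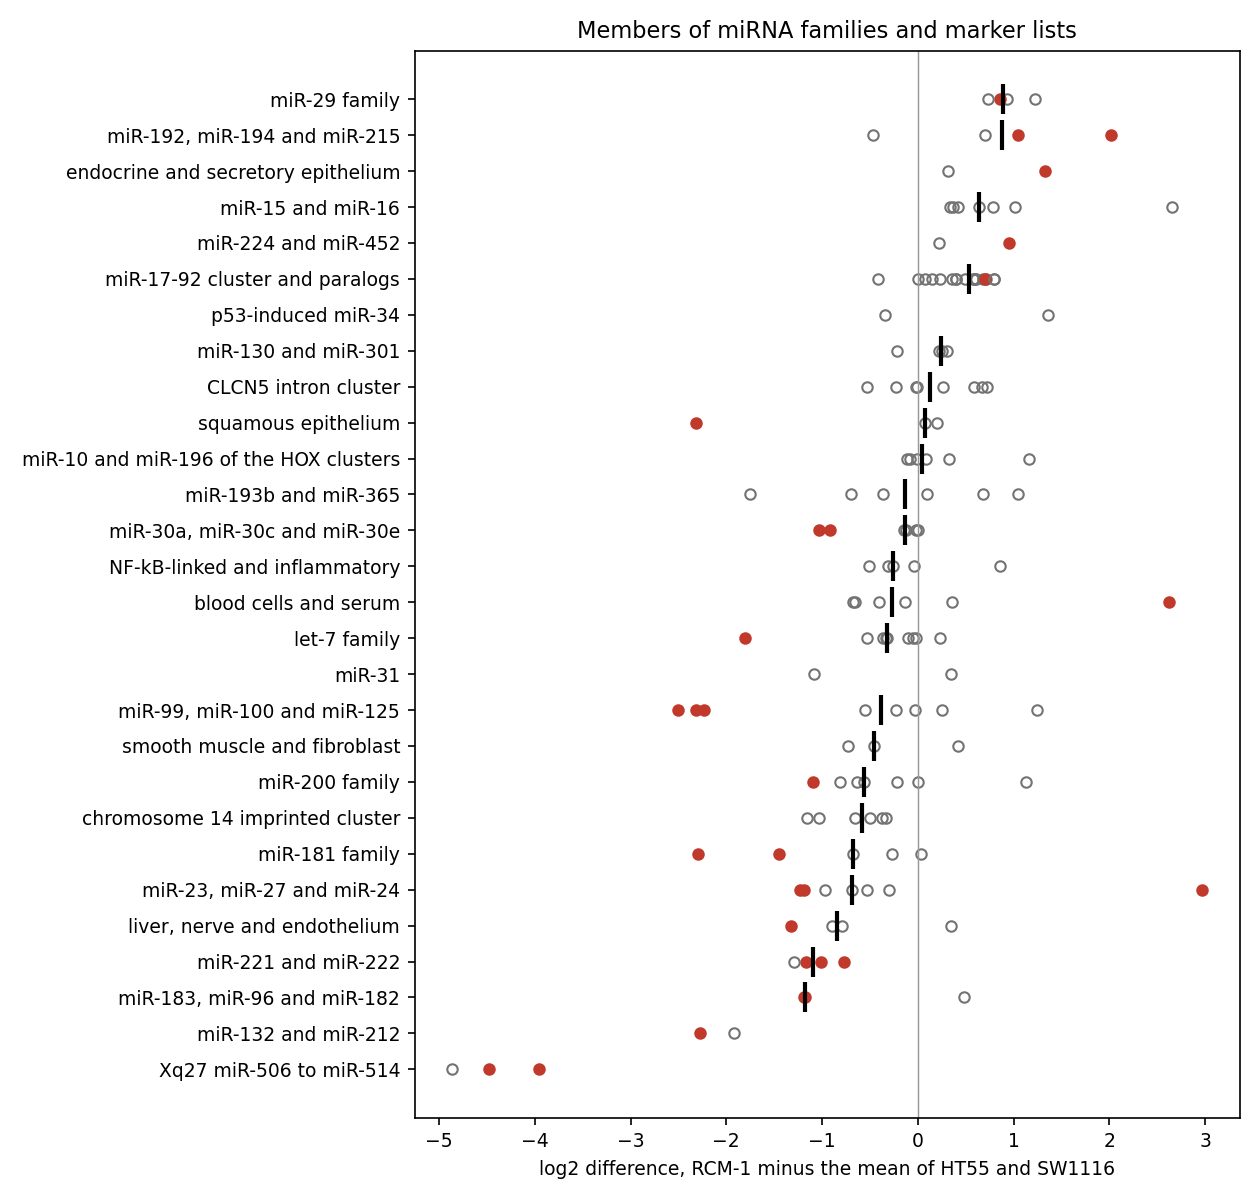
Fitted log2 difference of RCM-1 from the mean of HT55 and SW1116 for each tested member of the miRNA lists; filled points were called, open points were not, and black bars are medians of lists with 3 or more tested members, except the Xq27 list. The miR-221 and miR-222 list lies wholly below 0 and the miR-29 list wholly above it. The let-7 list holds 1 filled point (-1.80). Fitted values of members with very few RCM-1 counts depend on the prior count. Among these are miR-508-3p, miR-513a-5p, miR-365b-5p, miR-132-5p, miR-31-3p and miR-34c-5p, with 2 or fewer RCM-1 counts.

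No member was called against the mean in 10 further lists, the smooth muscle and fibroblast markers among them. Against HT55 alone, miR-146a-5p of the NF-kB-linked list was lower (-1.04, adjusted p = 0.0297) and miR-193b-3p was higher (1.70, adjusted p = 0.0361). Against the mean, medians were 0.04 in miR-10 and miR-196 of the HOX clusters (6 tested, -0.02 with RLE factors), -0.25 in the NF-kB-linked list (5 tested, 1 called higher with library totals or limma-trend) and 0.13 in the CLCN5 intron cluster (8 tested). miR-34a-5p was at -0.34 and miR-31-5p at 0.35, while the other tested members of their lists, miR-34c-5p and miR-31-3p, had 1 and 2 RCM-1 counts. Medians were 0.64 in miR-15 and miR-16 (7 tested), 0.24 in miR-130 and miR-301 (4 tested), 0.10 in miR-193b and miR-365 without miR-365b-5p, which had no RCM-1 count (6 tested, -0.13 with it, and 0.04 with it and library totals), and -0.58 in the chromosome 14 imprinted cluster (6 tested). The chromosome 14 list summed to only 53 to 166 counts per library. The smooth muscle and fibroblast markers had 3 tested members and no call (median -0.46), with 0.0633% and 0.0521% of RCM-1 counts, 0.0757% and 0.088% in HT55, and 0.0212% and 0.0321% in SW1116. The liver, nerve and endothelial markers had 4 tested and 1 lower, miR-9-5p (median -0.84). Their share was 0.0592% and 0.0357% in RCM-1, 0.0533% and 0.0919% in HT55, and 0.143% and 0.117% in SW1116. Of the 6 libraries compared, only HT55 replicate 2 held miR-124-3p, the neuronal miRNA, with 1 count.

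Among miRNAs that share a seed, some were called in the same direction and some were not. miR-192-5p and miR-215-5p (seed UGACCUA) were both higher, and miR-221-3p and miR-222-3p (GCUACAU) were both lower. In the CAGUGCA family miR-148a-3p was higher, while miR-152-3p, from an intron of COPZ2, was at 196 and 174 CPM in RCM-1, 356 and 386 in HT55, and 563 and 677 in SW1116. It fell by 1.38 (SE 0.33, adjusted p = 0.00466; 0.0696 without RCM-1 replicate 2). miR-148b-3p, the third member, was at 1229 and 1047 CPM in RCM-1 and 969 to 1376 in the other lines (0.01, SE 0.27, adjusted p = 1). Of the ACAUUCA seed of miR-181 only miR-181d-5p was lower, and of the ACCCGUA seed of miR-99 and miR-100 only miR-99b-5p.

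Pairs of arms were compared for the 41 hairpins whose tested arms each had, by name, a single place in the RefSeq table. In 25 of these pairs the arms had the same sign. miR-365a-3p and miR-365b-3p have the same sequence and the same counts. Their reads cannot be placed, and a single 3p value enters both of their pairs. Among these 41 the widest gap was in miR-23a, whose 3p arm was at -0.69 and whose 5p arm was called higher (adjusted p = 0.0402). miR-23a-5p was at 32.7 and 32.5 CPM in RCM-1, 8.68 and 9.3 in HT55, and 0 and 3.13 in SW1116, that is 5 and 11 counts against 1, 2, 0 and 1. The call was lost in 11 of 12 fits that left out a library, with adjusted p up to 0.189 (without HT55 replicate 2). The next gaps were in miR-365b (0.10 and a 5p arm without RCM-1 counts), miR-92b (0.93 and -0.90), miR-193b (1.04 and -0.36), miR-1307 (0.15 and 1.33) and miR-500a (0.59 and -0.54), and in these only miR-92b-3p was called.

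Some miRNAs were detected almost only on one side. miR-3180-3p, from a repeated locus on chromosome 16, had 9 and 5 counts in RCM-1 and 0 in the other 4 libraries, at least 12.6-fold higher in unscaled CPM with a floor of 3 counts over those 4 libraries. It was called (adjusted p = 0.00697) and lost without RCM-1 replicate 1 (0.16). miR-6763-5p had 14 counts in RCM-1 and 1 elsewhere (ratio 37.7, 95% counting interval 5.73 to 1590), miR-224-3p had 12 and 2 (16.2, 3.6 to 149), and miR-3605-5p had 10 and 3 (8.97, 2.31 to 50.7). For miR-224-3p, 11 of the 12 counts were in RCM-1 replicate 1 and 1 in replicate 2, so its ratio rests mainly on a single library. On the low side, miR-4301 had 1 count in RCM-1 against 40 (14.9, 2.52 to 601) and miR-3609 had 2 against 39 (7.24, 1.88 to 61.9). miR-3609 was tested and not called (adjusted p = 0.0543). These intervals cover counting error only.

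Of the other calls named here, miR-186-5p was at 647 and 597 CPM in RCM-1, 234 and 372 in HT55, and 270 and 295 in SW1116 (1.08, SE 0.32, adjusted p = 0.0226). miR-1303 was at 150 and 79.8 CPM in RCM-1, 43.4 and 51.1 in HT55, and 31.3 and 53.3 in SW1116 (1.31, SE 0.42, adjusted p = 0.0413). Both lay above every HT55 and SW1116 library, but the miR-186-5p call was lost in 7 of the 12 fits without a library (adjusted p up to 0.144, without RCM-1 replicate 1) and the miR-1303 call in 10 of 12 (up to 0.406, also without RCM-1 replicate 1). miR-221-5p was at 242 and 204 CPM in RCM-1, 304 and 391 in HT55, and 628 and 514 in SW1116 (-1.01, SE 0.30, adjusted p = 0.0241).

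The miRNAs that filled most of an RCM-1 library were mostly not called. miR-10a-5p, from the HOXB cluster of body-axis genes, took 22.8% ± 0.22 (SD, n = 2) of RCM-1 counts, 17.3% ± 1.11 of HT55 and 27.6% ± 1.68 of SW1116, and was not called (-0.11, SE 0.23, adjusted p = 0.827). miR-92a-3p took 11.6% ± 0.327, 10.2% ± 0.514 and 3.79% ± 1.03, and was the only one called among the 10 leading miRNAs of RCM-1. The oncogenic miR-21-5p took 6.78% ± 2.04, 4.10% ± 1.02 and 9.39% ± 0.93 (-0.03, SE 0.27, adjusted p = 0.972), with RCM-1 between the lines. The remaining leading miRNAs, miR-200c-3p, let-7a-5p, let-7b-5p, let-7f-5p, miR-30d-5p, miR-25-3p and miR-320a-3p, had differences between -0.53 (let-7b-5p) and 0.46 (miR-320a-3p). Against SW1116 alone let-7b-5p was lower (-1.01, adjusted p = 0.0341) and miR-320a-3p higher (1.03, adjusted p = 0.046).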

How the data were processed

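Small RNA libraries of extracellular vesicles from 6 cell lines, 2 per line, were made with IsoSeek, a low-input protocol with molecular identifiers, per the labels' protocols. The deposited counts are whole-number counts per mature miRNA, not normalized; a second table of log2 values that the authors deposited equals log2(CPM + 1) of those counts (largest difference 4.97e-14). Per the submitters' processing notes the genome build was hg38. The sources used here name no aligner or counter and do not say whether identifiers were collapsed.

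Counts were filtered with edgeR 4.0.16 (filterByExpr, line as group; R 4.3.3), TMM-scaled, and fitted with robust glmQLFit over all 12 libraries, 1 mean per line (common biological coefficient of variation 0.304). glmQLFTest contrasts were RCM-1 against the mean of HT55 and SW1116, against each, and HT55 against SW1116, with Benjamini-Hochberg adjustment over 318 miRNAs per contrast. SE is the difference divided by the square root of F. "Above each line" means adjusted p below 0.05 in both pairs. The procedure was tested on simulated data with the common spread for all miRNAs. It called 6 of 18 changes of 2-fold, 18 of 18 of 4-fold, 19 of 19 of 8-fold and 3 of 226 unchanged miRNAs. A miRNA without a call may therefore still differ by 2-fold. With 3 or fewer counts on one side, unscaled CPM ratios with exact 95% counting intervals are given.

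Members and all 28 lists were chosen with earlier results of these data known. Named miRNAs were, per direction, up to 12 called, non-overlapping and at 100 CPM or more, by size. The 10 most abundant in RCM-1, up to 4 per list and those between the lines were also named. So were those nearly absent on one side and those of the 6 widest arm gaps. These gaps were among hairpins whose arms had, by name, a single place in the RefSeq table. miR-1246, miR-148a-3p, miR-148b-3p, miR-99a-5p and other called miRNAs outside this rule were named after their values were seen. Alternatives were RLE factors, library totals, no filter, 10 CPM in 2 libraries, DESeq2 1.42.0, limma 3.58.1 (voom, and trend on the log2 values), only the 6 libraries, a replicate block, a fit that dropped the 10 leading miRNAs, and fits that dropped 1 library at a time.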

Additional observations from a re-analysis of the deposited data

How the results depend on the processing

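No call against the mean changed sign in any setting, and 12 of 41 held in all 22. With library totals as the only scaling, RCM-1 was higher than SW1116 in 38 miRNAs and lower in 16, HT55 was higher than SW1116 in 55 and lower in 13, and 5 were below each line. With limma-trend on the deposited log2 values, these were 37, 14, 46, 13 and 4, and 7 were above each line. Without a filter, 9 were higher than the mean, 8 higher than SW1116 and 1 above each line. With 10 CPM in 2 libraries 11 were higher than SW1116, and with DESeq2 9. With limma-voom 16 were lower than HT55 and 3 below each line. Leaving out 1 library gave 5 to 18 higher and 14 to 31 lower than the mean, 2 to 21 higher and 10 to 34 lower than HT55, 6 to 18 higher and 18 to 34 lower than SW1116, 21 to 38 higher and 17 to 40 lower for HT55 against SW1116, and 0 to 5 above and 2 to 13 below each line. A line left with 1 library takes its spread from the remaining lines. The cause of these moves was not tested.

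With the replicate number as a block there were 20 higher and 25 lower than the mean. Replicate differences of the lines had correlations of -0.00423 (RCM-1 and HT55), 0.249 (RCM-1 and SW1116) and -0.105 (HT55 and SW1116). These values cannot decide whether the numbers pair the samples, since each line gives only a single difference between replicates. Under the block miR-92a-3p had an adjusted p of 0.0507 in edgeR's test. At 1.61 to 7.21 CPM per count, the levels of miRNAs with a few counts were loosely measured.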
